A study of Mus musculus with 15 samples.

Results

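The genes described here are the presynaptic vesicle and release machinery of cultured mouse cortical neurons exposed to kainate, which opens glutamate receptors of the kainate and AMPA classes. The list held 46 genes. Probes were taken where the platform annotation named a gene of the list and the probe was detected (a detection score above 0.95, meaning brighter than nearly all negative control beads) on at least 3 of the 15 arrays. The rule gave 50 of the 14154 probes tested in the series, for 38 of the 9824 genes with a tested probe. No probe carried the name of Ppfia3, Syt11, Napb or Sv2c, and the probes of Syt2, Syt7, Rab3c and Bsn were detected on at most 1 array and were not tested. A gene with several probes was counted by its brightest one.

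The neurons came from the neocortex of Swiss albino mouse foetuses of gestational day 15 to 16 and were 5 days in culture. The 4 groups were vehicle controls with a treatment time of 0 (n = 6), and neurons given 100 µM kainate for 5 h, 15 h or 24 h (n = 3 each). Their RNA was hybridised to Illumina mouse bead arrays. Whether replicates were separate cultures is not in the labels, and the p-values therefore cover only the spread among these arrays, which may be technical. All controls have time 0 and each group had its own positions on the 3 beadchips, so hours in culture and chip position cannot be told apart from the treatment.

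Release of neurotransmitter uses a cycle. Vesicles are filled and tethered near the terminal membrane, docked at the active zone by scaffold and Rab3 proteins, primed by Munc13 proteins and fused by SNARE proteins when a calcium sensor binds calcium, after which the membrane is recovered by clathrin-dependent endocytosis. Most of these proteins are made in neurons and serve as markers of synapse number and maturity in cortical cultures. The results are ordered by these roles: vesicle proteins, calcium sensors, SNAREs and their partners, Rab3 and the active zone, and endocytosis.

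Median intensities were 53.4 to 70.4 units, 49.5% to 55.2% of targets were detected, and the median number of beads behind a target was 34 or 35 per array. The median intensities at 24 h, 53.4 to 57.0 units, lay below those at 5 h, 62.0 to 70.4 units. Those of the controls, 54.9 to 69.0 units, and of the 15 h arrays, 54.9 to 70.1 units, overlapped both. Across probes, arrays of a group correlated at 0.978 to 0.996 in the controls and at 0.986 to 0.996 in the kainate groups. A few arrays stood apart. Control replicates 1 and 3 were both below each of the other 4 controls in 20 of the 38 presynaptic genes and both above in 6. Replicate 3 at 24 h was lower than the mean of the other 24 h arrays by 0.5 or more on the log2 scale in 10 genes and higher by that much in 1. Of 12 pan-neuronal markers, 10 passed the detection rule, with Tubb3, Map2 and Dcx among them. Rbfox3 had no named probe and that of Nefl was not tested. Astrocyte markers passed it too, 9 of 12, and so did 8 of 10 neural progenitor markers. In the controls the mean log2 level was 9.18 to 9.28 for the astrocyte list and 7.52 to 7.76 for the progenitor list. RNA of genes used as markers of other cell types was therefore present. Passing this rule, on any 3 of the 15 arrays, does not tell the make-up of the cultures or which cell type prevailed.

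At 5 h, 13 of the 38 presynaptic genes were lower than in the controls, 5 were higher and 20 did not pass the test (adjusted p below 0.05, limma with Benjamini-Hochberg adjustment over all 14154 probes). Over all 9824 genes, 22.9% were lower and 18.5% higher at this time. The largest fall was that of Sv2b, a vesicle glycoprotein, at -1.08 ± 0.14 on the log2 scale (SE). The largest rise was that of Unc13a, which encodes the priming factor Munc13-1, at 0.94 ± 0.20. The median change of the 38 genes was -0.22, against -0.037 over all genes. It was -0.13 with array medians aligned in place of quantile normalization, where the median over all probes was 0.05. Relative to all probes, the 38 genes were then at -0.18, against -0.19 with quantile normalization. With a block that joins control replicates 1 and 3 with the 5 h arrays, the median change of the 38 genes was -0.05, and -0.02 over all probes. No label gives this block. It compares the 5 h arrays with these 2 controls alone, which were both below the other controls in 20 of the 38 genes.

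At 15 h, 27 genes were lower, 3 were higher and 8 did not pass, where 24.5% of all genes were lower and 23.2% higher. The median change was -0.60, against -0.025 over all genes, and 10 of the 27 fell by 1 or more, which is a fall to 1/2 of the control level or less. Doc2b, a high-affinity calcium sensor, fell most, to 0.212 of its control level. Syt4, Rims2 and Unc13a were the 3 that rose.

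At 24 h, 26 genes were lower, 3 were higher and 9 did not pass, where 22.3% of all genes were lower and 22.7% higher. The median was -0.55, against -0.002 over all genes, and 12 genes were lower by 1 or more. Of the genes lower at 15 h, 25 were also lower at 24 h, and the same 3 genes were higher at all 3 times. Since the 3 comparisons share their controls, this overlap describes the time course and is no independent repeat. In bulk RNA, fewer neurons and less RNA per neuron cannot be told apart.

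The kainate times were also compared with each other, in the same fit. Between 15 h and 5 h, 16 of the 38 genes were lower at 15 h and 1, Doc2a, was higher, where 16.4% of all genes were lower and 19.4% higher. The second, dimmer Doc2a probe was called lower in this comparison, at -1.09. The median difference of the 38 genes was -0.33, and 0.01 over all probes. With array medians aligned it was -0.56, and -0.11 over all probes. With the block of control replicates 1 and 3 it was -0.74, and 0.02 over all probes. In each of these other settings 23 genes were lower. The probes called were 4521 with medians aligned (1226 higher) and 4533 with the block (2314 higher), against 4667 (2407 higher) without either. The block moves the median difference through the 5 h values, by its construction. Between 24 h and 15 h, 1 gene, Rab3b, was lower at 24 h and none was higher, where 0.478% of all genes were lower and 0.265% higher. Without replicate 3 at 24 h, Rab3b was still the gene lower and 2 genes, Rph3a and Syt5, were higher, and the number of probes called in the whole series was 638 in place of 91. A test for a change at any kainate time passed for 33 of the 38 genes, against 63.9% of all genes. The 33 include Snap25, whose probe was close to background, and Doc2a, whose probes disagree. By its brightest probe, neither passed against the controls at a single time.

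**Figure D1:**
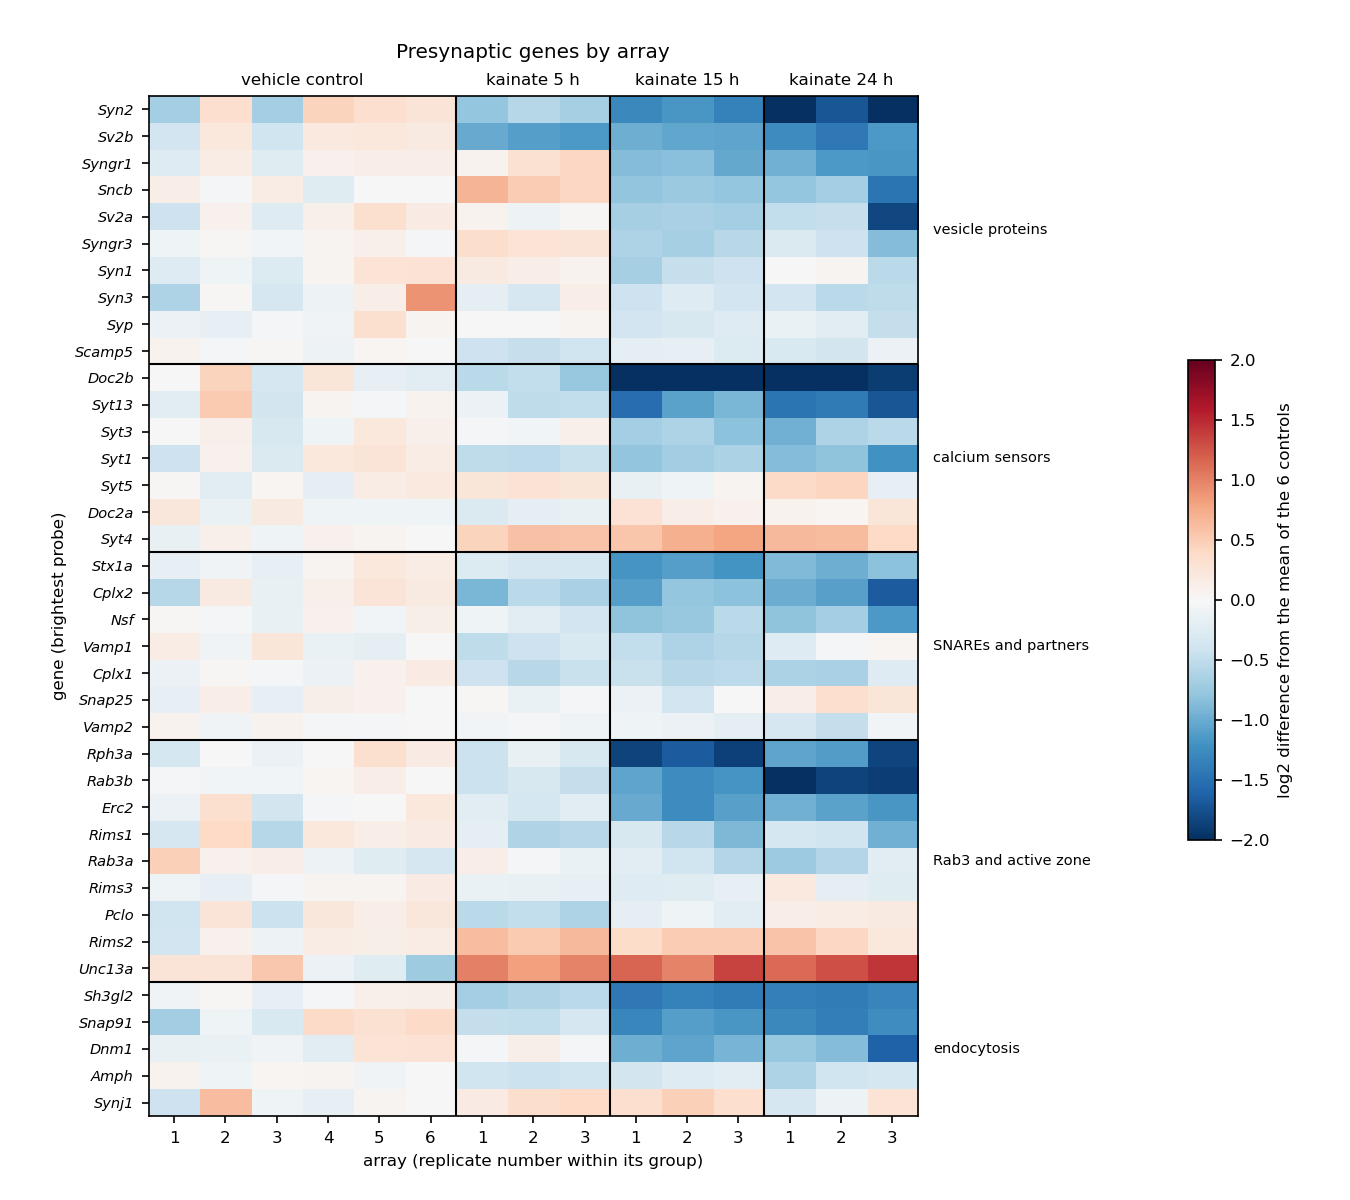
Each row is a presynaptic gene (brightest probe), grouped by role and sorted by its change at 15 h, and each column is an array. Colour is the log2 difference from the mean of the 6 vehicle controls, from -2 (blue) to 2 (red). Most rows are blue on all 15 h and 24 h arrays, Unc13a, Rims2 and Syt4 are red on every kainate array, and control replicates 1 and 3 are both below each of the other 4 controls in 20 of the 38 rows.

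Each beadchip held 2 controls and 1 array of every kainate time, which allows the same difference to be read within a chip, with no test. At 5 h the median change of the 38 genes was -0.12, -0.15 and -0.32 on the 3 chips. At 15 h it was -0.51, -0.52 and -0.74, with 32 or 33 genes below 0 on each chip. At 24 h it was -0.60, -0.48 and -0.95. The third chip gave the largest fall at every time. It holds neither control replicate 1 nor 3, and it holds replicate 3 of the 24 h group; the part of either in these values was not tested.

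**Figure D2:**
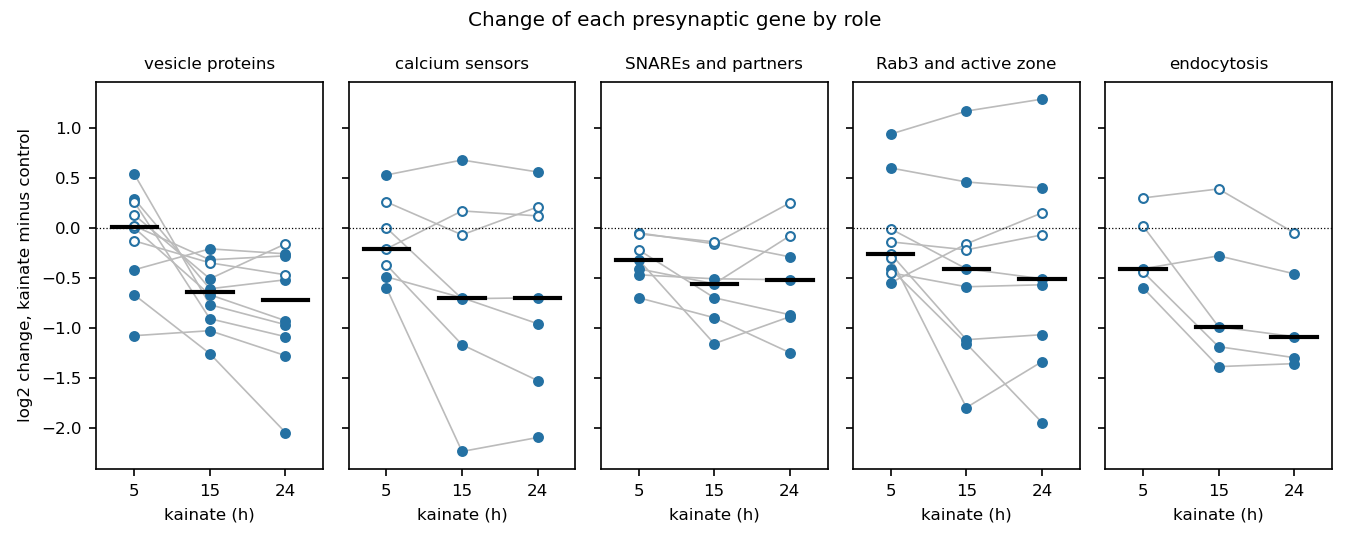
Log2 change of each presynaptic gene against the controls (vertical axis) at 5, 15 and 24 h of kainate, in 5 panels by role. Filled points passed the test, open points did not, grey lines join a gene and black bars are medians. The vesicle panel moves from a median of 0.01 at 5 h to -0.64 at 15 h, and the active zone panel holds both large falls and the rise of Unc13a to 1.29.

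Among the vesicle proteins, 10 of 11 listed genes were tested. At 5 h, 3 were lower and 2 higher (30% and 20%), where 22.9% of all genes were lower and 18.5% higher. At 15 h, 9 were lower and none was higher (90% and 0%), where 24.5% of all genes were lower and 23.2% higher. At 24 h, 8 were lower and none was higher (80% and 0%), against 22.3% and 22.7% of all genes. This group holds the synapsins, which tether vesicles to each other and to actin, the abundant membrane proteins synaptophysin and SV2, and the synaptogyrins.

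Syn2 had the largest fall of the group. On the log2 intensity scale its probe read 9.63, 10.62 and 10.76 in the controls (lowest, median and highest), 9.55, 9.75 and 9.65 at 5 h, 9.03, 9.16 and 8.97 at 15 h, and 8.28, 8.61 and 7.90 at 24 h. All 15 h and 24 h arrays lay below all controls, while the 5 h arrays lay at the level of control replicates 1 and 3, which both read 9.63. Its change was -1.26 ± 0.24 at 15 h (limma adjusted p = 0.000444) and -2.05 ± 0.24 at 24 h (adjusted p = 4.13e-06). The call at 5 h, -0.67 ± 0.24, was lost when any 1 of 7 arrays was left out, with values of -0.72 to -0.58.

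Syn1 read 11.48, 11.73 and 12.03 in the controls (lowest, median and highest), 11.93, 11.88 and 11.81 at 5 h, 11.09, 11.28 and 11.33 at 15 h, and 11.75, 11.80 and 11.21 at 24 h. The 15 h arrays were all below the lowest control, and at 24 h replicate 3 alone was. It fell by 0.51 at 15 h (adjusted p = 0.00942), a call that is lost without replicate 1 at 15 h, where the change was -0.44. At 24 h the change, -0.16 ± 0.15, did not pass, and without replicate 3 it was 0.03. A second Syn1 probe fell by 0.51 at both 15 h and 24 h and passed at both.

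Syp encodes synaptophysin, an abundant vesicle membrane protein. It read 12.14, 12.25 and 12.62 in the controls, 12.31, 12.29 and 12.36 at 5 h, 11.92, 11.98 and 12.04 at 15 h, and 12.16, 12.07 and 11.83 at 24 h. All 15 h arrays were below all controls and the 24 h arrays overlapped them. The falls of 0.32 at 15 h and 0.28 at 24 h passed (adjusted p = 0.0195 and 0.0388), and both were lost without single arrays: 2 arrays at 15 h, with values of -0.32 and -0.29, and 4 at 24 h, with values of -0.31 to -0.19.

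Sncb and Syngr3 changed in opposite directions over time. Sncb encodes beta-synuclein. It read 10.37, 10.62 and 10.77 in the controls, 11.30, 11.12 and 11.04 at 5 h, 9.83, 9.87 and 9.84 at 15 h, and 9.84, 9.94 and 9.15 at 24 h. Every 5 h array was above every control and every 15 h and 24 h array below. It rose by 0.54 ± 0.14 at 5 h (adjusted p = 0.0072), changed by -0.77 at 15 h and by -0.97 at 24 h, and the difference of 15 h minus 5 h was -1.31 ± 0.16 (adjusted p = 2.23e-05).

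Syngr3 encodes synaptogyrin-3. It read 10.86, 10.94 and 11.05 in the controls, 11.30, 11.22 and 11.21 at 5 h, 10.34, 10.28 and 10.40 at 15 h, and 10.66, 10.54 and 10.09 at 24 h. As with Sncb, no 5 h, 15 h or 24 h array overlapped the controls. The rise at 5 h was 0.29 ± 0.11 (adjusted p = 0.0372), the later changes were -0.61 and -0.52, and 15 h minus 5 h was -0.91 ± 0.12 (adjusted p = 4.23e-05). The 5 h call was lost without any 1 of 6 arrays, at 0.27 to 0.31.

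The other vesicle genes followed 2 courses. Sv2b changed by -1.08 already at 5 h, and was at -1.03 at 15 h and -1.28 at 24 h. Scamp5, a secretory carrier membrane protein gene, was lower at all 3 times, at -0.42, -0.21 and -0.26, and its 15 h call was lost without any 1 of 7 arrays (-0.23 to -0.18) and its 24 h call without replicate 2 at 24 h (-0.21). Syngr1 and Sv2a were lower at 15 h (-0.91 and -0.67) and 24 h (-1.09 and -0.93), with 5 h changes of 0.26 and 0.00 that did not pass. The 24 h mean of Sv2a rests partly on replicate 3, which read 9.02 where the other 24 h arrays read 10.35 and 10.39, and without it the change was -0.48. The 15 h call of Sv2a was lost without any 1 of 4 arrays, at -0.68 to -0.60. Syn3 was near background: it was detected on 3 controls, 1 array at 5 h and none at 15 h or 24 h, and its changes of -0.13, -0.35 and -0.47 did not pass.

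In the group of synaptotagmins and Doc2 proteins, called calcium sensors here for short, 7 of 10 listed genes were tested. At 5 h 2 were lower and 1 was higher (28.6% and 14.3%). At 15 h and at 24 h 4 were lower and 1 was higher (57.1% and 14.3%). Over all genes, 22.9% were lower and 18.5% higher at 5 h, 24.5% and 23.2% at 15 h, and 22.3% and 22.7% at 24 h. Some synaptotagmins, Syt1 among them, bind calcium and phospholipid and trigger fusion, which does not hold for every member. The Doc2 proteins respond to lower calcium levels.

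Doc2b read 7.94, 8.20 and 8.72 in the controls, 7.73, 7.78 and 7.51 at 5 h, 6.14, 6.03 and 5.94 at 15 h, and 6.21, 5.94 and 6.37 at 24 h. Each kainate array was below the lowest control, and the 15 h and 24 h arrays lay more than 1 log2 unit below those at 5 h. Its change was -0.60 ± 0.15 at 5 h, -2.24 ± 0.15 at 15 h (adjusted p = 8.61e-09) and -2.10 ± 0.15 at 24 h. A dimmer Doc2b probe was lower at 15 h and 24 h, at -1.58 and -1.61, and did not pass at 5 h (-0.04).

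Syt1 encodes the sensor of fast synchronous release. It read 10.33, 10.86 and 11.01 in the controls, 10.24, 10.23 and 10.30 at 5 h, 9.96, 10.05 and 10.12 at 15 h, and 9.88, 9.94 and 9.54 at 24 h. Every kainate array was below every control, by a margin of 0.03 between the highest 5 h array and control replicate 1. The change was -0.49 ± 0.14 at 5 h (adjusted p = 0.0124), -0.70 ± 0.14 at 15 h and -0.96 ± 0.14 at 24 h (adjusted p = 4.27e-05).

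Syt4, an activity-induced synaptotagmin of rodents, went the other way. It read 12.55, 12.72 and 12.80 in the controls, 13.14, 13.28 and 13.27 at 5 h, 13.25, 13.40 and 13.49 at 15 h, and 13.34, 13.33 and 13.09 at 24 h, with no overlap between the controls and any kainate array. It rose by 0.53, 0.68 and 0.56 (SE 0.09 each), or 1.60 times the control level at 15 h (adjusted p = 1.29e-05). With array medians aligned in place of quantile normalization the rise at 24 h was 0.22 and did not pass.

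Syt13 and Syt3 were lower at 15 h (-1.17 and -0.71) and at 24 h (-1.53 and -0.70), and did not pass at 5 h (-0.37 and 0.00). At 24 h their means, 4.83 and 5.05, were near background and each was detected on 2 arrays, so the sizes of these falls are uncertain. The other 2 sensors with a probe gave no change against the controls. Syt5 had changes of 0.26, -0.07 and 0.21, and without replicate 3 at 24 h its 24 h value was 0.41 and passed. Doc2a had changes of -0.21, 0.17 and 0.12 with its bright probe and was higher at 15 h than at 5 h by 0.38 (adjusted p = 0.0176), a call lost without replicate 1 at 5 h (0.34) or at 15 h (0.32). A second, dimmer Doc2a probe was lower at all 3 times, at -0.51, -1.59 and -1.23. Its difference of 15 h minus 5 h was -1.09 (limma adjusted p = 0.000383), so the 2 probes of this gene disagree.

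Of the SNAREs and their partners, 7 of 8 listed genes were tested. At 5 h 4 were lower (57.1%, against 22.9% of all genes). At 15 h and 24 h 5 were lower (71.4%, against 24.5% and 22.3%), with none higher at any time. Syntaxin-1A and SNAP-25 on the plasma membrane and VAMP2 on the vesicle form the core complex, complexins hold it before fusion and the ATPase NSF takes it apart afterwards.

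Stx1a read 11.97, 12.12 and 12.34 in the controls, 11.87, 11.80 and 11.78 at 5 h, 10.96, 11.03 and 10.94 at 15 h, and 11.25, 11.16 and 11.32 at 24 h. All kainate arrays were below all controls, lowest at 15 h. It fell by 0.32 at 5 h (adjusted p = 0.0124), by 1.16 at 15 h (SE 0.09, adjusted p = 6.19e-08) and by 0.89 at 24 h. The 5 h call was lost without replicate 3 at 5 h, at -0.31.

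Vamp2 read 12.08, 12.13 and 12.21 in the controls, 12.09, 12.11 and 12.06 at 5 h, 12.05, 12.03 and 11.95 at 15 h, and 11.81, 11.66 and 12.09 at 24 h. The 5 h arrays overlapped the controls, the 15 h arrays were below them and 1 of the 3 at 24 h was within them. The change passed only at 24 h, at -0.29 ± 0.09 (adjusted p = 0.0143), and not without replicate 1 or replicate 2 at 24 h (-0.27 and -0.19).

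Nsf read 11.02, 11.16 and 11.28 in the controls, 11.07, 10.96 and 10.78 at 5 h, 10.36, 10.41 and 10.63 at 15 h, and 10.36, 10.49 and 10.02 at 24 h. The 15 h and 24 h arrays were all below the controls, and 1 of the 5 h arrays was within their range. It changed by -0.70 ± 0.11 at 15 h (adjusted p = 7e-05) and by -0.87 ± 0.11 at 24 h (adjusted p = 7.77e-06). At 5 h the change of -0.22 did not pass.

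Cplx2 had the largest fall of this group, and no gene in it rose. It read 7.85, 8.56 and 8.68 in the controls, 7.50, 7.87 and 7.77 at 5 h, 7.32, 7.64 and 7.60 at 15 h, and 7.42, 7.33 and 6.75 at 24 h. Control replicate 1 was the lowest control and lay within the range of the 5 h arrays. The change was -0.70 ± 0.18 at 5 h, -0.90 at 15 h and -1.25 at 24 h (adjusted p = 3.16e-05).

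Cplx1, the other complexin, was lower by about the same amount at each time (-0.47, -0.51 and -0.52). Vamp1 was lower at 5 h and 15 h (-0.41 and -0.56) and not at 24 h (-0.08), and its second, dimmer probe passed at no time. The brightest Vamp1 probe was itself near background, with means of 5.65 in the controls and 5.09 at 15 h. The Snap25 probe that was tested was close to background. It read 4.60, 4.81 and 4.90 in the controls, 4.80, 4.63 and 4.73 at 5 h, 4.66, 4.38 and 4.78 at 15 h, and 4.91, 5.11 and 5.02 at 24 h, was detected on 2 controls and on 0, 1 and 3 kainate arrays at the 3 times, and passed against the controls at none. The level of Snap25 cannot be read from this probe.

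**Figure D3:**
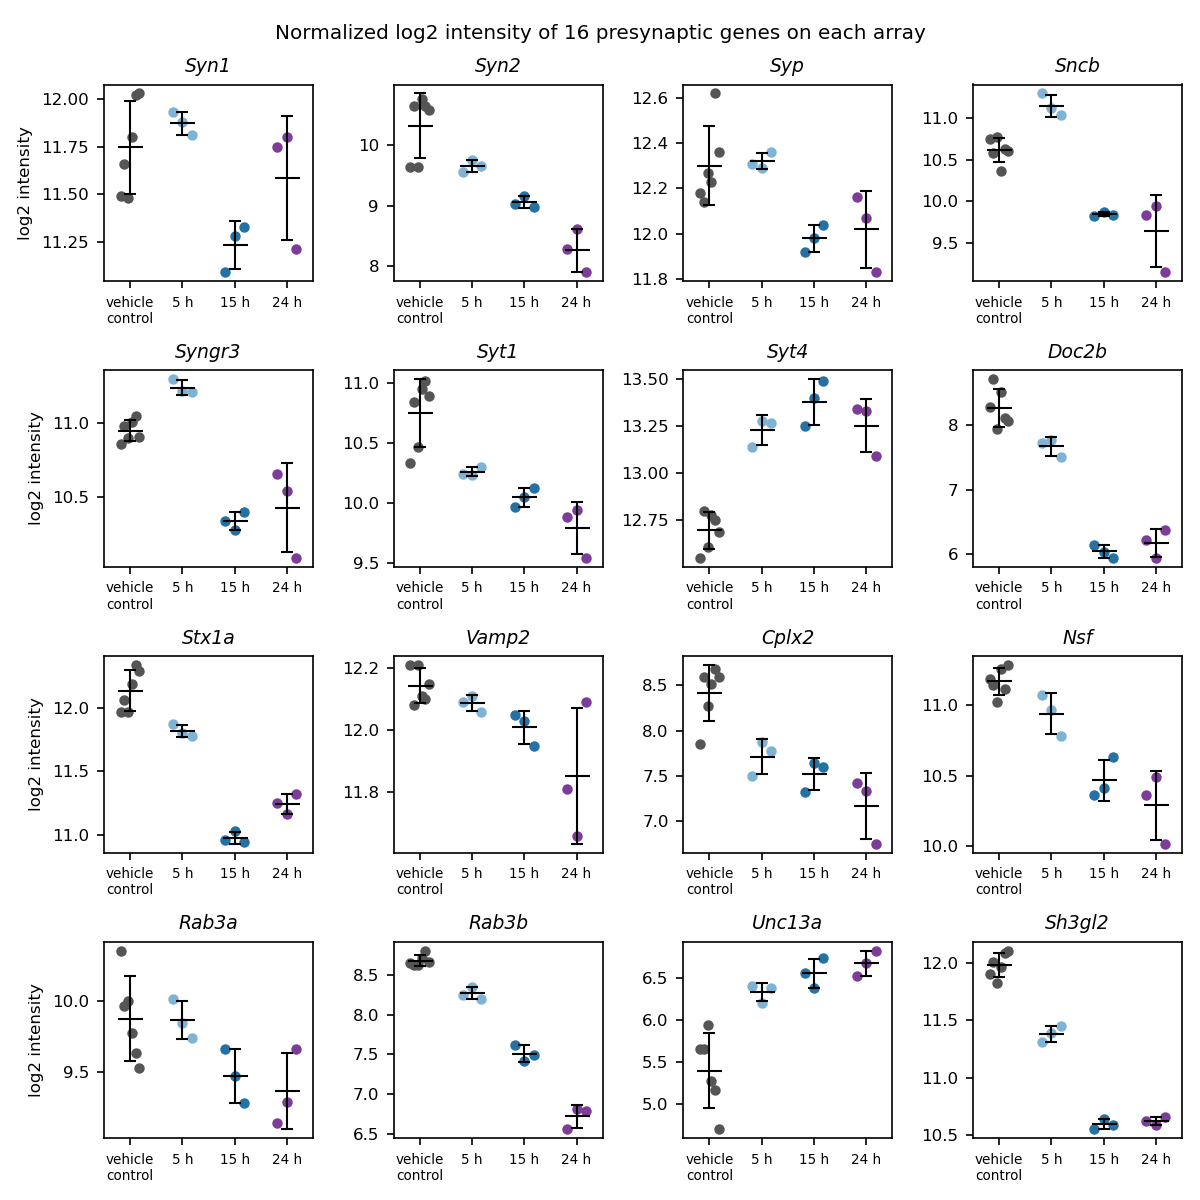
Normalized log2 intensity of 16 presynaptic genes on each array, in 16 panels with their own vertical scales, for vehicle controls and 5, 15 and 24 h of kainate. Points are arrays and the black marks are the mean and SD of each group (n = 6 controls, n = 3 at each time). Sncb and Syngr3 lie above the controls at 5 h and below them later, Syt4 and Unc13a lie above at all 3 times, and the 24 h point far below its group in Syn1, Sncb and Cplx2 is replicate 3.

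In the group of Rab3, its effectors and the active zone, 9 of 12 listed genes were tested. At 5 h 2 were lower and 2 higher (22.2% each), close to the 22.9% and 18.5% of all genes. At 15 h and 24 h 5 were lower and 2 higher (55.6% and 22.2%). Over all genes, 24.5% were lower and 23.2% higher at 15 h, and 22.3% and 22.7% at 24 h. Rab3 GTPases bring vesicles to the membrane, rabphilin (Rph3a) binds them, and RIM, ELKS, piccolo and Munc13 proteins build the release site.

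Rab3b read 8.62, 8.65 and 8.80 in the controls, 8.25, 8.35 and 8.20 at 5 h, 7.62, 7.42 and 7.49 at 15 h, and 6.56, 6.82 and 6.79 at 24 h. The 4 groups did not overlap at all, each time being lower than the one before. Its change was -0.41 ± 0.09 at 5 h, -1.16 ± 0.09 at 15 h and -1.95 ± 0.09 at 24 h (adjusted p = 8.2e-11), and it was the only presynaptic gene called between 24 h and 15 h (-0.79 ± 0.10, adjusted p = 0.00167).

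Rab3a, the main Rab3 of brain, read 9.53, 9.86 and 10.35 in the controls, 10.01, 9.84 and 9.74 at 5 h, 9.66, 9.47 and 9.28 at 15 h, and 9.14, 9.29 and 9.66 at 24 h. The kainate arrays overlapped the controls at every time. The changes of -0.41 ± 0.16 at 15 h (adjusted p = 0.0495) and -0.51 ± 0.16 at 24 h (adjusted p = 0.0168) passed. The 15 h call was lost without any 1 of 10 arrays, at -0.43 to -0.31, and the 24 h call without replicate 1 or 2 at 24 h, at -0.40 and -0.48.

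Unc13a was the gene that rose most. It read 4.69, 5.46 and 5.94 in the controls, 6.41, 6.21 and 6.39 at 5 h, 6.56, 6.39 and 6.74 at 15 h, and 6.53, 6.69 and 6.83 at 24 h. Every kainate array was above every control, and the controls were near background, with 5 of 6 detected. The rise was 0.94 ± 0.20 at 5 h (adjusted p = 0.00153), 1.17 at 15 h and 1.29 at 24 h (adjusted p = 6.9e-05), or 2.44 times the control level at 24 h. Rims2, which encodes RIM2, rose too, by 0.60, 0.46 and 0.40 (SE 0.12 each). Its 24 h call was lost without replicate 1 at 24 h (0.32), and with array medians aligned it was 0.09 at 24 h and did not pass.

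Rph3a, Erc2 and Rims1 were lower at 15 h and 24 h and did not pass at 5 h. Rph3a changed by -1.80 ± 0.16 at 15 h (adjusted p = 1.97e-07) and -1.34 at 24 h. Its 15 h arrays read 5.26 to 5.47, near background, so the size of that fall is uncertain. At 24 h its replicate 3 differed from the mean of the other arrays by -0.75. Erc2, an ELKS family scaffold gene, changed by -1.12 and -1.07. Rims1 changed by -0.59 and -0.57, with calls lost without single arrays, 2 at 15 h (-0.61 and -0.44) and 5 at 24 h (-0.55 to -0.38). Pclo, the gene of piccolo, was lower at 5 h (-0.55) and not later (-0.16 and 0.15), and its second probe was lower only at 15 h (-0.45). Rims3 passed at no time (-0.14, -0.22 and -0.07).

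For endocytosis, all 5 listed genes were tested, and none was higher. At 5 h 2 were lower (40%, against 22.9% of all genes), and at 15 h and 24 h 4 (80%, against 24.5% and 22.3%). Endophilin A1 (Sh3gl2) and amphiphysin (Amph) bend the membrane, AP180 (Snap91) recruits clathrin, dynamin-1 (Dnm1) cuts the vesicle neck and synaptojanin (Synj1) strips the coat. Sh3gl2 read 11.83, 11.99 and 12.11 in the controls, 11.31, 11.39 and 11.45 at 5 h, 10.55, 10.64 and 10.59 at 15 h, and 10.62, 10.59 and 10.66 at 24 h. The 5 h arrays lay between the controls and the later arrays with no overlap, and 15 h and 24 h lay together. Its change was -0.60 ± 0.08 at 5 h, -1.39 ± 0.08 at 15 h (adjusted p = 1.46e-09) and -1.36 ± 0.08 at 24 h. A second Sh3gl2 probe gave -0.17 at 5 h, which did not pass, and -1.37 and -1.51 later.

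Snap91 changed by -1.19 at 15 h and -1.30 at 24 h, and Dnm1 by -0.99 and -1.09, both with no call at 5 h (-0.44 and 0.02). The second probes of both genes were lower at 15 h and 24 h too. Amph was lower at all 3 times (-0.41, -0.28 and -0.46). Its 15 h call was lost without replicate 1 at 15 h, at -0.24, and its second probe, near background, passed at no time. Synj1, detected on 4 of 6 controls, passed at no time (0.30, 0.39 and -0.05).

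Leaving out single arrays ended 2 of the 13 lower calls at 5 h (Stx1a and Syn2), 7 of the 27 at 15 h and 5 of the 26 at 24 h. In 7 of the 13 genes lower at 5 h, control replicates 1 and 3 were both below the other 4 controls. Without these 2 arrays, all 13 stayed lower and Erc2, Rims1, Rph3a, Snap91 and Syt13 passed as well, while the rise of Syngr3 did not. With a block that joins these 2 controls with the 5 h arrays, which by its construction acts mainly on the 5 h values, 7 of the 13 stayed lower (Amph, Cplx1, Rab3b, Scamp5, Sh3gl2, Sv2b and Vamp1), and Syn2 had a change of 0.02. Under the same block the rises of Sncb (0.39) and Unc13a (0.53) at 5 h did not pass. Why these arrays stood apart was not tested.

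Probe choice also mattered at 5 h. Of 12 genes with a second tested probe, 6 were lower at 5 h by the brightest probe (Amph, Doc2b, Pclo, Scamp5, Sh3gl2 and Vamp1) and none of these 6 by the other. At 15 h, 8 of 10 genes lower by the brightest probe were lower by the other as well, with Amph and Vamp1 the exceptions, and at 24 h 7 of 8 were, with Amph the exception.

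**Figure D4:**
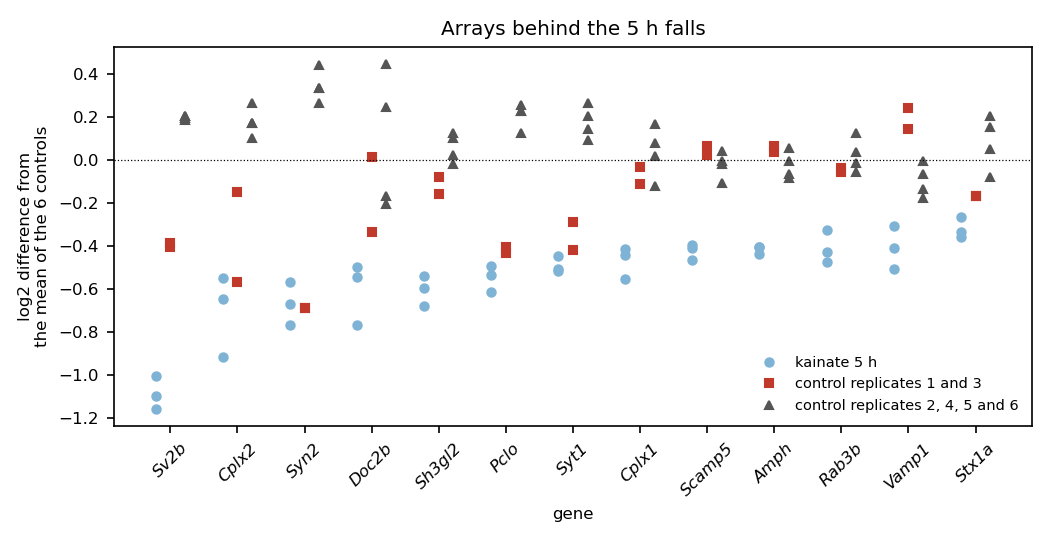
The 13 presynaptic genes lower at 5 h, sorted by their change (horizontal axis), with each array's log2 difference from the mean of the 6 controls (vertical axis). Circles are the 3 arrays at 5 h, squares are control replicates 1 and 3, and triangles are the other 4 controls. In Syn2 both squares lie among the circles and in Cplx2 1 square does, while in the other genes the circles lie below both kinds of control.

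Scaling moved the balance of calls over the whole series. With array medians aligned in place of quantile normalization, the share of called probes that were higher was 61.8% in place of 46.3% at 5 h, 40.7% in place of 48.2% at 15 h and 22.4% in place of 49.1% at 24 h. The median over all probes at 24 h was then -0.19 and that of the 38 genes -0.95, or -0.76 relative to all probes, where quantile normalization gave -0.54 relative to them. Under that scaling 28 genes were lower and 3 higher at 15 h, and 27 lower and 1, Unc13a, higher at 24 h. Of all 14154 probes, it called 6036 at 15 h (2455 of them higher) and 6744 at 24 h (1510 of them higher). Quantile normalization called 6406 at 15 h (3089 higher) and 6082 at 24 h (2988 higher). The aligned medians thus gave more lower probes over the whole series as well. At 5 h the falls of Cplx1, Scamp5 and Stx1a did not pass with array medians aligned.

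A list of 87 other presynaptic genes, with 62 tested, was read beside the 38. It covers further SNAREs, synaptotagmins, transmitter transporters, vesicular ATPase subunits and clathrin adaptors. At 5 h 9 were lower and 12 higher (14.5% and 19.4%, against 22.9% and 18.5% of all genes). At 15 h the numbers were 26 and 8 (41.9% and 12.9%, against 24.5% and 23.2%). At 24 h they were 25 and 10 (40.3% and 16.1%, against 22.3% and 22.7%). Their medians were 0.08, -0.20 and -0.10. The transporters of glutamate and GABA were among those that fell: Slc17a7 (VGLUT1) by 1.77 at 15 h and 1.31 at 24 h, Slc17a6 (VGLUT2) by 0.67, 0.68 and 0.36 at the 3 times, and Slc32a1 (VGAT) by 1.05, 1.38 and 1.48. Lin7b, a Veli scaffold gene, had the largest fall, 2.38 at 15 h. The 8 genes that rose at 15 h were Eps15 (1.29), Lin7a (0.97), Ppfia1 (0.87), Vamp3 (0.80), Snap23 (0.61), Apba1 (0.58), Syngr2 (0.53) and Vamp4 (0.35). Of these, Lin7a, Snap23 and Syngr2 did not pass at 24 h.

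Markers of cell types moved alongside, and their part in the presynaptic changes was not tested. Their counts stand beside the shares over all genes. Those were 22.9%, 24.5% and 22.3% lower and 18.5%, 23.2% and 22.7% higher at the 3 times. Of the 10 pan-neuronal markers tested, which are no presynaptic genes, 2 were lower and 1 higher at 5 h, and 6 were lower and none higher at 15 h and 24 h, with medians of 0.16, -0.41 and -0.41. Their summed intensity was 30340 to 37250 units in the controls, while the kainate arrays gave 30870 to 32930 (5 h), 22290 to 23910 (15 h) and 20480 to 24490 (24 h). Tubb3 had the largest fall among them, 1.31 at 15 h, while Map2 (-0.11) and Nefm (-0.07) did not pass.

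Of the 9 astrocyte markers tested, 5 were higher at 5 h, 7 at 15 h and 7 at 24 h, and Aldoc was lower at 24 h. Their summed intensity was 17180 to 18050 units in the controls, while the kainate arrays gave 22060 to 22700 (5 h), 35620 to 36860 (15 h) and 29700 to 34190 (24 h). Gfap, the astrocyte intermediate filament gene, rose by 1.74 and Gja1 (connexin 43) by 1.73 at 15 h. Of the 8 progenitor markers tested, 5, 7 and 4 were higher at the 3 times and none was lower, with sums of 3241 to 3741 units in the controls, while the kainate arrays gave 7506 to 8652 (5 h), 9086 to 9693 (15 h) and 7486 to 7702 (24 h).

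Microglial markers were low: 6 of 12 were tested, Aif1 was lower at 5 h (-0.39) and 15 h (-0.37), 3 were higher at 15 h and at 24 h, and their sums were 186.6 to 216.7 units in the controls, while the kainate arrays gave 167.4 to 182.4 (5 h), 216.3 to 257.4 (15 h) and 216.6 to 298.9 (24 h). Cd68 and Csf1r had no named probe, and the probes of Itgam, Ptprc, Tyrobp and P2ry12 were not tested. Of 7 oligodendrocyte lineage markers tested, 2 were lower and 1 higher at 5 h, none passed at 15 h and 3 were higher at 24 h. Their sums were 11130 to 12450 units in the controls, while the kainate arrays gave 8386 to 9051 (5 h), 10590 to 11350 (15 h) and 12660 to 15250 (24 h).

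**Figure D5:**
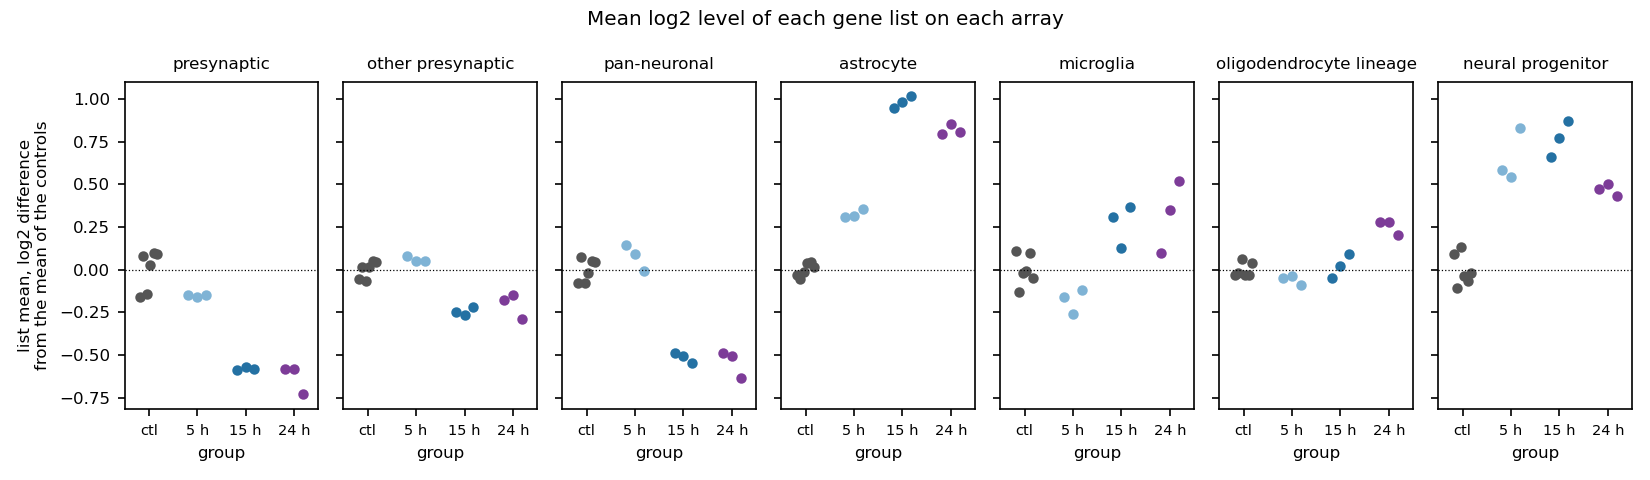
Mean log2 level of 7 gene lists on each array (points), as a difference from the mean of the 6 controls (vertical axis), for vehicle controls (ctl) and 5, 15 and 24 h of kainate. The presynaptic and pan-neuronal lists lie below the controls at 15 h and 24 h, and the astrocyte list lies above them at all 3 times.

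The promoters were searched for 2 motifs bound by factors that respond to neuronal activity and calcium. The CRE, TGACGTCA, is bound by CREB and related factors, and the AP-1 motif, TGANTCA, by Fos and Jun proteins. Both motifs read the same on the 2 strands, and no promoter matched here held both. RefSeq promoters (assembly GRCm38.p6, 250 bases before to 50 after the start) were matched by symbol for 35 of the 46 genes, 45 promoters in all. A CRE lay in 2 of these 45 promoters, against 1.79% of all 32851 promoters of the table, and an AP-1 motif in 3 of them, against 7.81%.

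The 4 printed here belong to genes lower at 15 h, and the third promoter with an AP-1 motif is that of Syt2, which was not tested. They are shown 5′ to 3′ on the strand of the gene, with the motif in capitals.
Sh3gl2, chr4:85205206-85205505, plus strand, CRE: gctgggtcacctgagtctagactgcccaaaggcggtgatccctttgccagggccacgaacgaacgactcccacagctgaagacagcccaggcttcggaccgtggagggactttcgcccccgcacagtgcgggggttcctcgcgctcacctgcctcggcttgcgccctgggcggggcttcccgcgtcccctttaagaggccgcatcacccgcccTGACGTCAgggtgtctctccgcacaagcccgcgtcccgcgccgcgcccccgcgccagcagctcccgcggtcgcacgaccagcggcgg
Syn1, chrX:20920869-20921168, minus strand, CRE: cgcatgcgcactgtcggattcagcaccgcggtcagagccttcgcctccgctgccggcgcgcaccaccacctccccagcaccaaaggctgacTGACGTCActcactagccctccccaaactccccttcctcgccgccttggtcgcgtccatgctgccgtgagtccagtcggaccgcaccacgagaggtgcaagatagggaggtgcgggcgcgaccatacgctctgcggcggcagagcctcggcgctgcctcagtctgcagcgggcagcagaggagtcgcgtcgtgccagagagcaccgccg
Rph3a, chr5:121010043-121010342, minus strand, AP-1: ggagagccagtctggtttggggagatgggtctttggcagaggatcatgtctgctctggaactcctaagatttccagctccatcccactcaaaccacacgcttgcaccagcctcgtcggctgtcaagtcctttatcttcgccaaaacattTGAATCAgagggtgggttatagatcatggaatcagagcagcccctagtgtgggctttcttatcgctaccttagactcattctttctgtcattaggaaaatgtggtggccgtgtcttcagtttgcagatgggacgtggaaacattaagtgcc
Erc2, chr14:27622157-27622456, plus strand, AP-1: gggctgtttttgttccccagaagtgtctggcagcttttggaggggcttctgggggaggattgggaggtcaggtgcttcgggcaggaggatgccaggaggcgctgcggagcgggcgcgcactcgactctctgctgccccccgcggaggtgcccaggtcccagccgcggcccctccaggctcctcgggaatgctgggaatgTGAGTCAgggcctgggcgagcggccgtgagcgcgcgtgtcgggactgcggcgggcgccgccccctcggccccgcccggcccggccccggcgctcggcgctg
The first base of the motif lies at position -37 from the start in Sh3gl2, -159 in Syn1, -101 in Rph3a and -51 in Erc2. Rph3a has 3 promoters in the table and the motif was found in 1 of them. Sh3gl2 fell at all 3 times and the other 3 genes at 15 h with no call at 5 h, and a match of letters is a description of the sequence, not a site in use. Of the 3 genes that rose, Unc13a had a promoter in the table, with neither motif.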

How the data were processed

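RNA of 15 samples of cultured neurons was measured on Illumina mouse bead arrays. The authors' deposited profile gives bead mean intensity per target without normalization, a Detection fraction (1 minus the detection p) and bead numbers, made with BeadStudio 3.2.3 per the file headers. The authors' deposited ratio equals, from the values, the signal over the array's median and the control median, to within 0.151%. The profile's other 72 columns match no sample here and were not used. Genes were named through the platform annotation (20854 targets with 1 symbol, 1 with several), linked by equal deposited ratios.

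Intensities were background-corrected (nec in limma 3.58.1, offset 16, after removing 1 target with a bright signal and a poor detection p), quantile-normalized and put on the log2 scale. Probes with Detection above 0.95 on at least 3 arrays, 14154 in all, were fitted with 1 mean per group (lmFit, eBayes), and p-values were adjusted by Benjamini-Hochberg at 0.05. The fit was tested on simulated data. The number of arrays limits the precision. Alternatives were other scaling, background and detection rules, the deposited ratios, beadchip blocks, and arrays left out. Per-array values are given for core genes of each role, the gene with the largest fall and rise of each role, and genes called in both directions. The members and lists were chosen with earlier results of these data known. Figures used matplotlib 3.10.9.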

Additional observations from a re-analysis of the deposited data

Results flagged for a closer look

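Sncb and Syngr3 were called in opposite directions at different times against the same controls. The effect at 15 h minus the effect at 5 h was -1.31 ± 0.16 on the log2 scale for Sncb (limma adjusted p = 2.23e-05) and -0.91 ± 0.12 for Syngr3 (limma adjusted p = 4.23e-05), and in both genes all 3 arrays at 15 h were below all 3 at 5 h. No other of the 38 presynaptic genes was called higher at 5 h and lower later.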

How the results depend on the processing

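Of 4530 gene results under alternative settings, 4360 (96.2%) stayed on their side of the threshold, among them results that passed in neither fit and may have changed sign. A further 92 no longer passed, 76 newly passed and 2 reversed. The reversed ones were Syn2 at 5 h (0.02) and Sv2b at 15 h minus 5 h (-0.53). Both came with the block that joins control replicates 1 and 3 with the 5 h arrays. Such a block sets the 5 h arrays against these 2 controls alone and the later arrays against the other controls. Both reversals follow from that construction. That block gave 8 genes lower at 5 h, 7 of the 13 and Doc2a, and it gave 2 higher at 15 h against 5 h, and gave 2 lower, 2 higher and 293 probes called at 24 h against 15 h. Without these 2 controls, 2 genes were higher at 15 h against 5 h, and 2 were lower, 1 was higher and 238 probes were called at 24 h against 15 h. With array medians aligned, 1 gene was higher at 24 h, 0 at 15 h against 5 h, and 2 were lower with 391 probes called at 24 h against 15 h. With the deposited ratios, 0 genes were higher at 15 h against 5 h, and 2 were lower with 505 probes called at 24 h against 15 h. Without background correction, and without the detection filter, 2 genes were higher at 15 h against 5 h, and 138 and 139 probes were called at 24 h against 15 h. With the deposited ratios, the share of called probes that were higher was 59.4% at 5 h, 41.0% at 15 h and 25.4% at 24 h.

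Leaving out each array in turn gave 11 to 16 genes lower and 4 to 6 higher at 5 h (4097 to 5970 probes called), 22 to 28 and 3 to 4 at 15 h (5294 to 6793), and 22 to 27 and 2 to 4 at 24 h (5239 to 6377). It gave 14 to 18 lower and 0 to 2 higher at 15 h against 5 h (3576 to 5106), and 1 lower and 0 to 2 higher at 24 h against 15 h (7 to 638). Of 95 calls, 76 held without any 1 array, and none reversed. Deviations of kainate arrays from their group means correlated at -0.11 to 0.29 within a beadchip, against -0.28 to 0.19 between chips. The controls were left out of this reading and the ranges overlap, so it cannot decide whether arrays of a chip pair. With the beadchip as a replicate block, 12, 27 and 26 genes were lower at the 3 times, and 5, 3 and 3 were higher. Under it, 65 probes were called at 24 h against 15 h.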
